A study of Homo sapiens with 6 samples.

Results

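Aminoacyl-tRNA synthetases are the enzymes that attach each amino acid to its transfer RNA before the ribosome can use it. Their genes were taken from the deposited count table by symbol and gene type, as protein-coding genes named for an amino acid's synthetase, which gave 37 of the 60664 genes listed. Of these, 20 encode cytosolic enzymes and 17, whose symbols end in 2, encode mitochondrial ones. RNA was sequenced from cells labelled HCT8 in 2 groups of 3 libraries, one transfected with a control plasmid (labelled genotype WT) and one with a plasmid that overexpresses KDM4A (labelled genotype KDM4A-overexpressing). HCT8 is an established human colorectal cancer cell line, KDM4A is a histone lysine demethylase, and all 6 samples carry the same batch number. The labels give DMEM with serum as the medium and name neither a time after transfection nor a selection of transfected cells. They also do not say whether the libraries are separate cultures, and p-values then measure only the spread between these libraries, which may be technical.

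Cytosolic synthetases serve the ribosomes of the cytosol, and several of them sit together with scaffold proteins in the multi-tRNA synthetase complex. Mitochondrial synthetases are separate nuclear gene products imported into mitochondria, except that GARS1 and KARS1 make both forms. Uncharged transfer RNA activates the kinase GCN2 (gene EIF2AK4), which raises translation of the transcription factor ATF4, and ATF4 in turn induces amino acid synthesis genes and many cytosolic synthetase genes. ATF4 binds composite sites with the core TGATGCAA.

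Library totals ranged from 14284240 to 23905980 counts. KDM4A itself stood higher in each library of its plasmid group, at 152 to 160 CPM (read counts scaled to a common library size, adjusted by TMM composition factors) against 42.8 to 45.8 CPM in the controls. The groups differed across most of the transcriptome. Of 17147 genes tested, 78.6% passed edgeR's quasi-likelihood test at a Benjamini-Hochberg adjusted p under 0.05, 40.0% being higher with the KDM4A plasmid and 38.6% lower. In 79.7% the CPM values of the groups did not overlap. Markers of the labelled cell type moved with the groups. The summed level of 12 colon epithelium genes was 254 to 271 CPM in control libraries and 3448 to 3703 CPM in KDM4A plasmid libraries, and all 9 of them that could be tested rose. GPA33, CEACAM5 and KRT20 were near 0 in both groups (2 to 11 counts over 3 libraries). The sum of 7 genes known from embryonic kidney lines, IRS4 and LIN28B among them, was 2399 to 2798 CPM in control and 496 to 520 CPM in KDM4A plasmid libraries, and 6 of the 7 fell. That all libraries are HCT8 rests on the labels alone. The part of these markers in the synthetase results was not tested, and in bulk RNA a different mix of cells and a different amount of RNA per cell cannot be told apart.

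The promoter sequences of 30 of the 37 genes were matched by symbol in RefSeq (build GRCh38.p14), as windows of 250 bases before to 50 bases after each annotated start. The others, AARS2, LARS1, VARS1, VARS2 and YARS1 among them, had no window. The motif TGATGCAA was searched on both strands. It was present in the windows of 6 synthetases, all of them cytosolic (6 of 16 with a window, against 0 of 14 mitochondrial), and in 1.08% of all genes with windows. The looser form TGATGNAA, which includes every TGATGCAA match, was present in 8 synthetases (7 cytosolic, and YARS2) and in 4.46% of all genes. The sequences around these matches are shown 5′ to 3′ on the gene's strand because they set the cytosolic genes beside each other. Capitals mark the match, which reads TTGCATCA or TTTCATCA where it lies on the opposite strand.
AARS1 (chr16:70289656-70289723, minus strand): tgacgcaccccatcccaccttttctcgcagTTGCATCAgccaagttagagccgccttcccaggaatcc
CARS1 (chr11:3057388-3057455, minus strand): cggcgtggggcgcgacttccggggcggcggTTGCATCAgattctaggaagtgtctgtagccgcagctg
IARS1 (chr9:92293673-92293740, minus strand): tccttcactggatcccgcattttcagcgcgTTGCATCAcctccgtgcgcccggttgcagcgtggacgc
MARS1 (chr12:57488034-57488101, plus strand): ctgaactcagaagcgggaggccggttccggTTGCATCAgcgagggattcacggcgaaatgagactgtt
TARS1 (chr5:33440937-33441004, plus strand): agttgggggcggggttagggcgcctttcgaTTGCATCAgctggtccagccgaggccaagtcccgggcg
NARS1 (chr18:57621787-57621852, minus strand): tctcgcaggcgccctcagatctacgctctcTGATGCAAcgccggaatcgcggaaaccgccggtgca
GARS1 (chr7:30594815-30594882, plus strand): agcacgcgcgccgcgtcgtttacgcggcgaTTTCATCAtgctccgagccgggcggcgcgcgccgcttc
YARS2 (chr12:32756057-32756124, minus strand): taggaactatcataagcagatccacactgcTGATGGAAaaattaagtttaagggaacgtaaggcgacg

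In 5 of the 6 genes with TGATGCAA the match began between 13 bases before and 14 bases after the annotated start, and in AARS1 it began 187 bases before it. A match describes the letters of the window and does not show binding. Of the 6 genes, AARS1, IARS1, CARS1, MARS1 and NARS1 were lower with the KDM4A plasmid and TARS1 did not pass the test. Of all genes tested, 38.6% were lower. Among cytosolic genes whose windows lack TGATGCAA, EPRS1, FARSB, GARS1, SARS1 and WARS1 were also lower. There KARS1 was higher, and FARSA, HARS1, QARS1 and RARS1 did not pass. LARS1 and YARS1, which were lower too, had no window. The part of the motif in these changes was not tested.

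Cytosolic synthetases were mostly lower in the KDM4A plasmid group. Of the 20, 12 fell (60%, against 38.6% of all genes tested), 2 rose (10%, against 40.0%) and 6 did not pass, with a median log2 fold change of -0.28 beside 0.03 over all genes tested. All 20 passed the filter on low counts. Their summed level was 6278, 6236 and 6619 CPM in the control libraries and 4670, 4601 and 4558 CPM in the KDM4A plasmid libraries. The groups did not overlap in this sum, and its share of all counts went from 0.648% ± 0.00903 in controls to 0.454% ± 0.00117 (SD, n = 3). In 16 of the 20 genes the CPM values of the groups did not overlap (80%, against 79.7% of all genes tested), so separation as such was no more common than elsewhere.

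The largest falls in the fit without trend removal were those of EPRS1, LARS1 and IARS1, enzymes of the multi-synthetase complex. With GC and exon length trends removed, their values were -0.75, -0.65 and -0.77, and AARS1 (-1.21), YARS1 (-1.15), GARS1 (-0.92) and SARS1 (-0.92) were lower still. EPRS1, a single protein that charges both glutamate and proline transfer RNA (ENSG00000136628, chromosome 1, 219968600 to 220046530, minus strand, GRCh38.p13), stood at 704, 720 and 768 CPM in controls and at 356, 351 and 349 CPM with the KDM4A plasmid. Every KDM4A plasmid library lay far below every control library, and the log2 fold change was -1.05 (SE 0.06, edgeR adjusted p = 8.7e-12). LARS1, the leucine enzyme, which has also been described as a leucine sensor for mTORC1, gave 434, 443 and 451 CPM against 229, 213 and 216 CPM. Its groups were as clearly apart (log2 fold change -1.01, SE 0.05, adjusted p = 8.0e-12). For IARS1, the isoleucine enzyme, the control values were 857, 887 and 924 CPM and the KDM4A plasmid values 463, 428 and 439 CPM. Its groups were again apart, and on the log2 scale the gene fell by 1.00 (adjusted p = 2.8e-11, SE 0.06). Together EPRS1, IARS1 and LARS1 made up 32.3% ± 0.554 of the summed cytosolic synthetase CPM in controls, which dropped to 22.0% ± 0.447 (SD, n = 3).

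The promoter of EPRS1 is shown because this gene had the largest fall before trend removal, and its window holds no TGATGNAA match on either strand.
EPRS1 (chr1:220046456-220046755, minus strand): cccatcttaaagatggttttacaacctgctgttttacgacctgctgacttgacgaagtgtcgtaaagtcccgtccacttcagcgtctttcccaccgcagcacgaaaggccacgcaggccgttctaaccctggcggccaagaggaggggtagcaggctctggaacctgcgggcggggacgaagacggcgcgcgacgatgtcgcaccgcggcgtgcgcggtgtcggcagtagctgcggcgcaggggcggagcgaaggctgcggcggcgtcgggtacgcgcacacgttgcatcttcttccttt

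Of the cytosolic enzymes outside the multi-synthetase complex, those for alanine, glycine and tyrosine fell most. AARS1 (chromosome 16, 70251983 to 70289707), which charges alanine transfer RNA, had 344, 331 and 313 CPM in controls and 173, 179 and 182 CPM with the KDM4A plasmid (log2 fold change -0.89, SE 0.05, adjusted p = 5.8e-11). GARS1, the glycine enzyme of both compartments, had 498, 491 and 543 CPM and 338, 322 and 314 CPM (log2 fold change -0.66, SE 0.06, adjusted p = 8.6e-09). Its groups did not overlap, and neither did those of YARS1. YARS1, the tyrosine enzyme, stood at 548, 535 and 564 CPM in controls and 355, 367 and 366 CPM with the KDM4A plasmid (-0.60 on the log2 scale, SE 0.05, adjusted p = 8.9e-09).

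Falls of the other 6 cytosolic genes that passed were smaller, with log2 fold changes from -0.45 to -0.16. They were FARSB (-0.45), the beta subunit of the phenylalanine enzyme, SARS1 for serine (-0.45), CARS1 for cysteine (-0.35), WARS1 for tryptophan (-0.34), MARS1 for methionine (-0.21) and NARS1 for asparagine (-0.16, adjusted p = 0.017). The groups were apart in each of these 6 genes. NARS1 no longer passed without KDM4A plasmid replicate 2 (-0.16) or replicate 3 (-0.14). The call of FARSB, which has the longest exon length of the family (6761 bases), was lost once trends with GC content and exon length were removed (0.087).

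VARS1 and KARS1 were the cytosolic genes that rose. VARS1 (chromosome 6, 31777518 to 31795752), the valine enzyme, had 113, 104 and 103 CPM in controls and 135, 156 and 144 CPM with the KDM4A plasmid. Its groups were apart (log2 fold change 0.44, SE 0.06, adjusted p = 4.0e-06), but it was called lower (-0.19) after removal of the GC and length trends. KARS1, the lysine enzyme of both compartments and a member of the multi-synthetase complex, had 227, 222 and 231 CPM and 297, 280 and 274 CPM (log2 fold change 0.32, SE 0.05, adjusted p = 2.1e-05). Neither trend correction kept this call (0.065 with GC and length, -0.10 with length alone).

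The other 6 cytosolic genes did not pass the test, which does not show that they were equal. TARS1, for threonine, gave 367, 353 and 423 CPM in controls and 370, 356 and 356 CPM with the KDM4A plasmid (log2 fold change -0.08, 95% interval -0.21 to 0.05). In TARS1 the groups overlapped and control replicate 3 was the high library. QARS1, for glutamine, gave 163, 159 and 150 CPM and 152, 165 and 163 CPM (0.02, interval -0.09 to 0.14). RARS1, for arginine, gave 189, 194 and 234 CPM and 221, 209 and 206 CPM (0.04, interval -0.10 to 0.19). These groups also overlapped, and control replicate 3 was again the highest library of RARS1. HARS1, for histidine, gave 123, 121 and 123 CPM and 128, 130 and 132 CPM (0.09, interval -0.02 to 0.19). FARSA, the alpha subunit of the phenylalanine enzyme, gave 116, 112 and 102 CPM and 108, 122 and 121 CPM (0.09, interval -0.04 to 0.23). HARS1 was higher in every KDM4A plasmid library and FARSA overlapped, and with GC and length trends removed both were called lower (HARS1 -0.19, FARSA -0.72), as was QARS1 (-0.51).

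**Figure D1:**
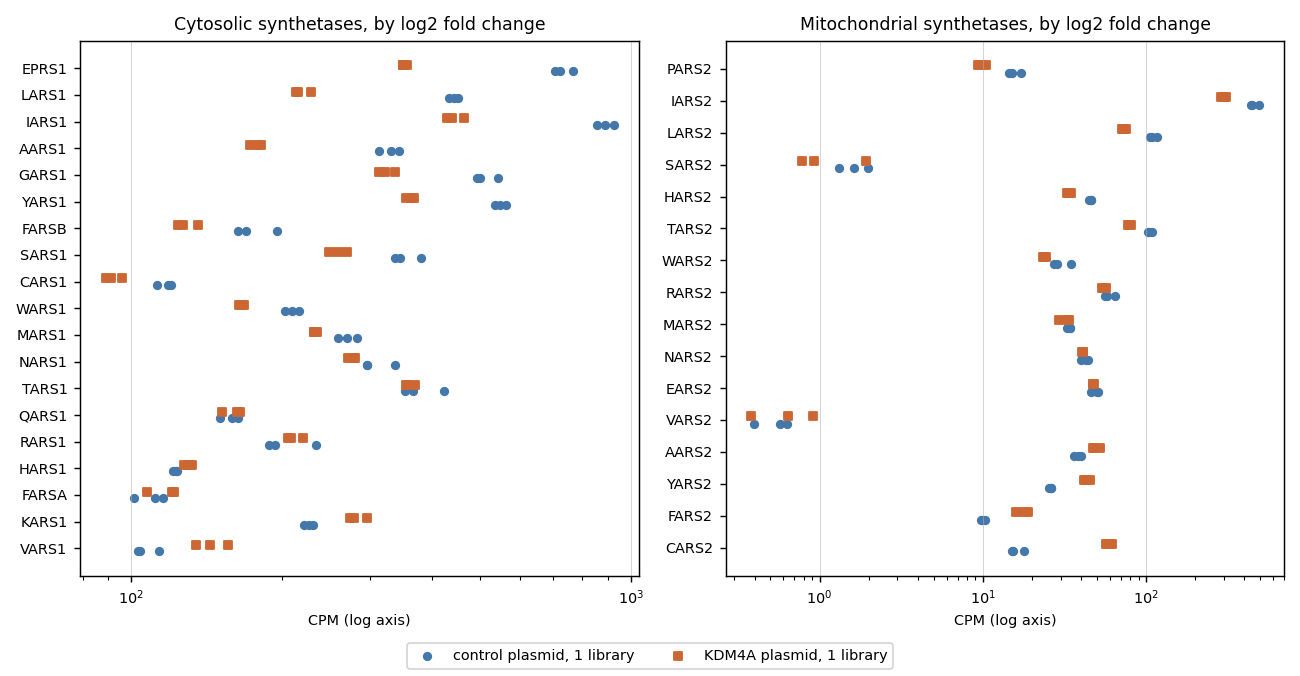
CPM of the synthetases described (log axis) in every library, with genes ordered from the largest fall at the top to the largest rise at the bottom; circles are the 3 control plasmid libraries and squares the 3 KDM4A plasmid libraries. EPRS1, LARS1 and IARS1 head the cytosolic panel with the groups far apart, and CARS2 at the bottom of the mitochondrial panel lies at 15.2 to 17.9 CPM in controls and 56.9 to 62.1 CPM with the KDM4A plasmid.

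The cytosolic genes were also described by whether they are known to be induced by ATF4 in the amino acid response. Of 13 such synthetases, 11 fell (84.6%, against 38.6% of all genes tested), VARS1 rose and TARS1 did not pass, with a median log2 fold change of -0.45. Of the 7 other cytosolic genes, FARSB fell, KARS1 rose and 5 did not pass, with a median of 0.04. With GC and length trends removed, 12 of the 13 were called lower and TARS1 did not pass (-0.084), with a median of -0.70. Of the other 7, 3 were called lower (median 0.040). Over all 17147 genes tested, 7892 were called lower in this setting, with a median of -0.14. With the length trend alone removed, 12 of the 13 and 5 of the other 7 were called lower, against 7813 of all genes tested. The difference between the sets of genes was not tested.

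Of 22 other ATF4 targets listed, 16 fell (72.7%, against 38.6% of all genes tested), 4 rose (18.2%, against 40.0%) and 2 did not pass, with a median log2 fold change of -0.62. ASNS, the asparagine synthetase of amino acid metabolism, fell by 3.35 (SE 0.16, 13.4 ± 1.30 to 1.30 ± 0.318 CPM), and ALDH1L2, a mitochondrial folate enzyme, fell by 3.23 (SE 0.08). XPOT, which exports transfer RNA from the nucleus, fell by 0.90 (SE 0.05), from 427 ± 2.82 to 229 ± 12.4 CPM (n = 3). The largest rises were those of the transcription factor genes ATF5 (1.42, SE 0.09) and CEBPB (1.38, SE 0.09). With GC and length trends removed, ATF5 stood at 0.63, CEBPB at 0.37 and XPOT at -0.36.

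ATF4 mRNA itself did not pass the test, at 782 ± 30.1 CPM in controls and 824 ± 9.60 CPM with the KDM4A plasmid (log2 fold change 0.08, SE 0.06, adjusted p = 0.22), and with GC and length trends removed its value was -0.66. ATF4 is controlled largely at translation, which these counts do not measure. Of 8 genes listed as ATF4 and its regulators, 4 fell (50%, against 38.6% of all genes tested), 2 rose (25%, against 40.0%) and 2 did not pass. EIF2AK3 (-0.62, SE 0.07), the kinase PERK of the endoplasmic reticulum, and EIF2AK4 (-0.48, SE 0.06), the kinase GCN2, fell most. PPP1R15A, a phosphatase subunit that reverses eIF2 phosphorylation, rose by 1.51 (SE 0.06, 32.5 ± 1.46 to 92.5 ± 3.65 CPM), and EIF2S1, the alpha subunit of eIF2, by 0.12 (SE 0.05, adjusted p = 0.0436). After trend removal EIF2AK3 stood at -0.41, EIF2AK4 at -0.28, PPP1R15A at 0.82 and EIF2S1 at 0.52. The other genes of the list that fell, EIF2AK2 and PPP1R15B, had positive values after it (0.48 and 0.18).

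WARS1 is also known as a gene induced by interferon gamma. All 6 tested genes of a list of 10 interferon gamma response genes rose (against 40.0% of all genes tested), with a median log2 fold change of 2.45. The immunoproteasome genes PSMB8 (4.49, SE 0.11) and PSMB9 (3.25, SE 0.22) rose most, and no gene of the list fell. WARS1 went the other way, from 216, 204 and 210 CPM in controls to 165, 168 and 166 CPM with the KDM4A plasmid.

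The cytosolic genes were also counted by membership of the multi-synthetase complex. Of its 8 enzymes, EPRS1, LARS1, IARS1 and MARS1 fell (50%, against 38.6% of all genes tested), KARS1 rose and 3 did not pass (QARS1 and RARS1 among them), with a median of -0.16. Of the 12 cytosolic enzymes outside this complex, 8 fell (66.7%), 1 rose and 3 did not pass, with a median of -0.34. The scaffold genes of the complex moved apart from each other. AIMP2 rose by 1.11 (SE 0.08, 37.7 ± 5.26 to 81.6 ± 2.28 CPM) and EEF1E1 by 0.35 (SE 0.08), while AIMP1 fell by 0.39 (SE 0.06, 160 ± 9.43 to 122 ± 5.80 CPM). With the trends removed AIMP1 stood at -0.060 and AIMP2 at 0.54.

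Synthetases fall into a pair of unrelated structural classes, which differ in the fold of the catalytic domain. Class I and class II held 18 genes each, and in each class 9 fell, 3 rose and 6 did not pass. In each, 50% were lower and 16.7% higher, against 38.6% and 40.0% of all genes tested. EPRS1 carries a domain of both classes and was left out of these counts. Among the cytosolic genes, 6 of 9 class I and 5 of 10 class II enzymes fell.

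**Figure D2:**
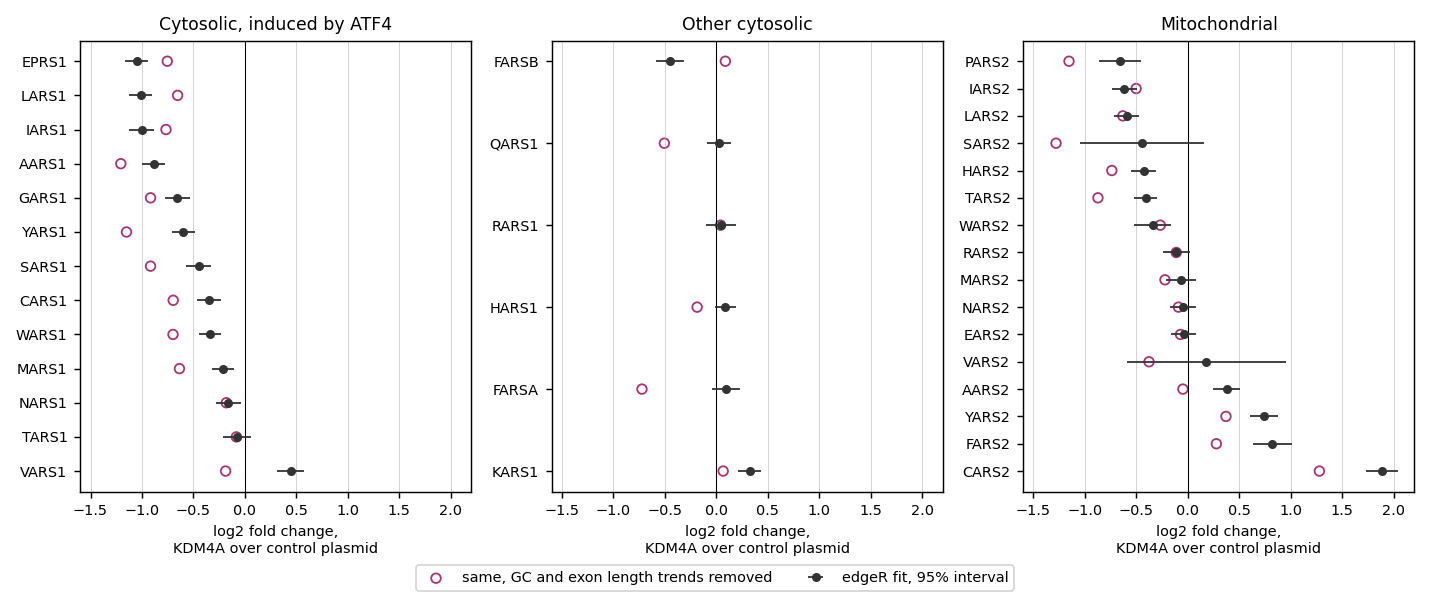
Log2 fold change of the synthetases described (KDM4A over control plasmid) for cytosolic genes known to be induced by ATF4, the other cytosolic genes and the mitochondrial genes; filled points are edgeR estimates with 95% intervals and open circles the estimates with GC and exon length trends removed. In the ATF4-induced panel 11 of 13 filled points are called below 0, and the open circles of VARS1, QARS1 and FARSA, among others, lie on the other side of 0 from the filled points.

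Mitochondrial synthetases moved in both directions. Of the 17, 7 fell (41.2%, against 38.6% of all genes tested), 4 rose (23.5%, against 40.0%) and 6 did not pass, with a median log2 fold change of -0.11. Without trend removal, the share that fell was close to the background. Their summed level was 1152, 1165 and 1210 CPM in controls and 962, 956 and 924 CPM with the KDM4A plasmid, and these values did not overlap. IARS2 alone made up a mean of 458 CPM of this sum in controls and 299 CPM with the KDM4A plasmid. In 11 of the 17 genes the groups were apart (64.7%, against 79.7% of all genes tested). With the length trend alone removed, 11 of the 17 were called lower and 4 higher, against 7813 and 5374 of the 17147 genes tested. With GC and length trends removed, 10 were called lower and 3 higher, against 7892 and 5580 of all genes tested. In both settings the share that fell was above that over all genes tested.

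CARS2 had the largest change of any synthetase. CARS2 (ENSG00000134905, chromosome 13, 110641412 to 110713603, minus strand), the mitochondrial cysteine enzyme, which can also form cysteine persulfide, had 15.2, 17.9 and 15.2 CPM in controls and 59.1, 62.1 and 56.9 CPM with the KDM4A plasmid. All 3 KDM4A plasmid libraries lay more than 3-fold above every control library (log2 fold change 1.89, SE 0.07, adjusted p = 1.6e-13), and the value was 1.28 with GC and length trends removed. The gene lies near the end of chromosome 13. Of 53 tested genes between 100 and 120 Mb of that chromosome, CARS2 included, 42 rose and 6 fell, with a median log2 fold change of 1.15. Shares in this region were 79.2% higher and 11.3% lower, against 40.0% and 38.6% of all genes tested. The part of this region in the rise of CARS2 was not tested. One of its promoter windows is shown because the gene has the largest rise, and it holds no TGATGNAA match.
CARS2 (chr13:110706067-110706366, minus strand): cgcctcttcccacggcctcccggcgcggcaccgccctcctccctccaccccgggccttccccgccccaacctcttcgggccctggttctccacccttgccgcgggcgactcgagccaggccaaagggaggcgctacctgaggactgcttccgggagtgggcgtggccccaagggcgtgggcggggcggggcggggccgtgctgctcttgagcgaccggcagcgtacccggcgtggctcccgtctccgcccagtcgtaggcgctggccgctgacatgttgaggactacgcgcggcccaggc

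The other mitochondrial rises were those of the enzymes for phenylalanine, tyrosine and alanine. FARS2, a single-chain enzyme unlike its cytosolic counterpart of FARSA and FARSB, had 9.76, 9.92 and 10.3 CPM in controls and 17.7, 18.9 and 16.0 CPM with the KDM4A plasmid (log2 fold change 0.82, SE 0.09, adjusted p = 2.2e-07). YARS2, the tyrosine enzyme, had 26.3, 26.1 and 25.6 CPM and 45.3, 43.0 and 41.6 CPM (0.74, SE 0.06, adjusted p = 6.6e-09). Neither pair of groups overlapped, and removal of both trends left 0.28 for FARS2 and 0.37 for YARS2. The YARS2 locus shares 18161 bases with DNM1L (18954 counts) on the other strand, and without a stated strand setting reads of the shared part cannot be told apart. Other members also overlap a gene on the other strand, over shorter stretches for CARS2 (868 bases with ING1, 2501 counts) and KARS1 (871 bases with TERF2IP, 11778 counts). AARS2, the alanine enzyme, had 39.9, 38.0 and 36.0 CPM and 48.1, 52.2 and 46.9 CPM (0.38, SE 0.06, adjusted p = 3.6e-05). It did not pass after removal of both trends (-0.048).

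Among the mitochondrial falls were those of the enzymes for proline, isoleucine and leucine. PARS2, for proline, had 17.1, 14.5 and 15.1 CPM in controls and 9.76, 9.39 and 10.5 CPM with the KDM4A plasmid (log2 fold change -0.66, SE 0.10, adjusted p = 6.8e-06). Its groups were apart, as were those of the next genes. IARS2, for isoleucine, had 438, 447 and 491 CPM and 310, 298 and 288 CPM (-0.62, SE 0.06, adjusted p = 2.3e-08). LARS2, for leucine, had 108, 117 and 105 CPM and 71.1, 75.4 and 72.0 CPM (-0.59, SE 0.06, adjusted p = 3.7e-08). Per kb of exon, IARS2 had the highest level of the mitochondrial synthetases in both groups (130 CPM per kb in controls, 84.7 CPM per kb with the KDM4A plasmid). Smaller falls were those of HARS2 (-0.43), TARS2 (-0.41) and WARS2 (-0.34), for histidine, threonine and tryptophan, and the groups were apart in each.

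Of the 6 mitochondrial genes that did not pass, 4 were well measured. RARS2, for arginine, had 56.2, 57.5 and 64.8 CPM in controls and 55.3, 53.6 and 56.8 CPM with the KDM4A plasmid (log2 fold change -0.11, 95% interval -0.24 to 0.02). MARS2, for methionine, had 32.7, 34.0 and 34.3 CPM and 33.3, 33.6 and 29.2 CPM (-0.07, interval -0.21 to 0.08). Both genes had overlapping groups. RARS2 lies on chromosome 6 between 80 and 100 Mb, where 47 of 68 tested genes fell and 7 rose, with a median log2 fold change of -0.68. Shares there were 69.1% lower and 10.3% higher, against 38.6% and 40.0% of all genes tested. The part of this region in the value of RARS2 was not tested. NARS2, for asparagine, had 39.8, 42.6 and 44.3 CPM and 41.1, 40.7 and 41.1 CPM (-0.05, interval -0.17 to 0.08). EARS2, for glutamate, had 50.8, 50.1 and 46.0 CPM and 47.3, 48.0 and 47.2 CPM (-0.04, interval -0.17 to 0.08). In NARS2 and EARS2 the KDM4A plasmid values fell within the range of the controls.

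SARS2 and VARS2 were barely counted. SARS2, the mitochondrial serine enzyme, had 1.32, 1.97 and 1.62 CPM in controls and 1.92, 0.931 and 0.775 CPM with the KDM4A plasmid (log2 fold change -0.45, 95% interval -1.05 to 0.15). VARS2, for valine, had 0.633, 0.395 and 0.570 CPM and 0.639, 0.381 and 0.916 CPM (0.18, interval -0.59 to 0.95). Over all 6 libraries they held 168 and 66 counts, where every other synthetase held at least 1501. In the table's own gene models, another gene on the same strand (ENSG00000269547, 2 counts in all) covers 15360 bases of the SARS2 locus, and a further one (ENSG00000288473, 0 counts) covers all 12255 bases of VARS2. The part of these overlaps in the low counts was not tested.

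**Figure D3:**
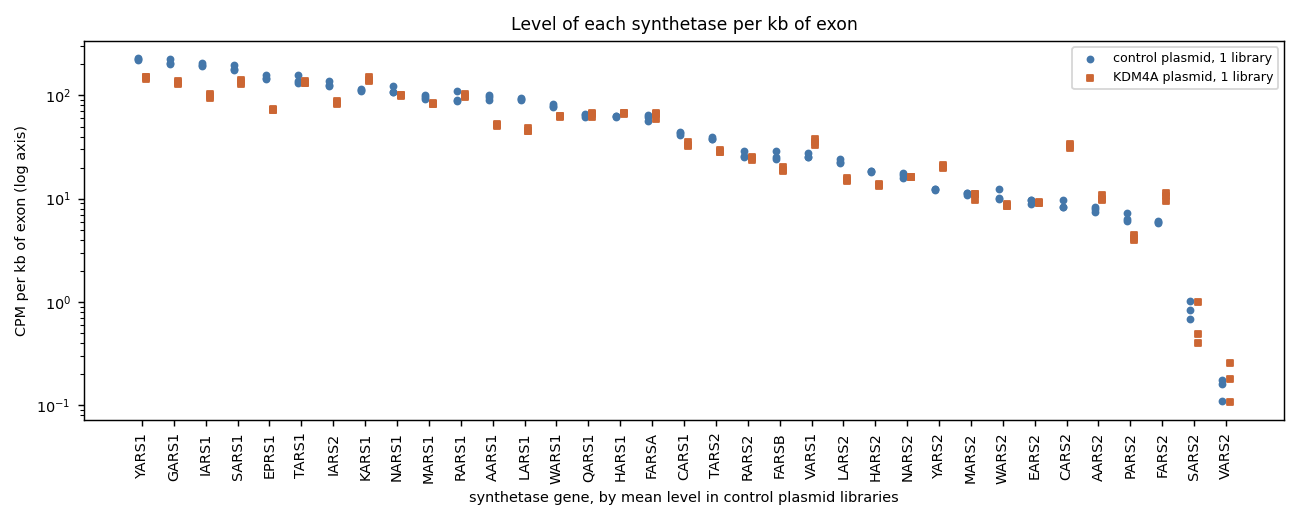
Level of the synthetases described as CPM per kb of exon (log axis), ordered by the mean of the control plasmid libraries; circles are single control plasmid libraries and squares single KDM4A plasmid libraries. YARS1 is highest in both groups, IARS2 is the only mitochondrial gene among the 10 highest, and SARS2 and VARS2 lie well below all others.

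Per kb of exon, levels spanned a wide range. YARS1 ranked first in both groups (225 CPM per kb in controls and 148 CPM per kb with the KDM4A plasmid). GARS1 followed in controls (210 CPM per kb), then IARS1 (198 CPM per kb), SARS1 (185 CPM per kb) and EPRS1 (150 CPM per kb). With the KDM4A plasmid KARS1 moved from rank 8 to rank 2 (142 CPM per kb), while IARS1 moved from rank 3 to rank 8 (98.9 CPM per kb) and EPRS1 from rank 5 to rank 11 (72.4 CPM per kb). CARS2 moved from rank 32 to rank 21. Neighbouring ranks often overlapped between libraries, as for KARS1 and NARS1 in the controls. Exon lengths are those of the table and count every annotated exon of a gene.

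Each mitochondrial enzyme was set beside the cytosolic enzyme for the same amino acid, which gave 18 pairs (EPRS1 and FARS2 enter 2 pairs each). The cytosolic gene was higher per kb of exon in every library in all 18 pairs. The serine and valine pairs rest on SARS2 and VARS2, which were barely counted (168 and 66 counts). In 4 pairs the cytosolic gene fell and the mitochondrial gene rose, those of alanine, cysteine, tyrosine and the FARSB and FARS2 pair of phenylalanine. Opposite calls were lost for alanine (AARS2 -0.048) and for FARSB and FARS2 (FARSB 0.087) with GC and length trends removed. In 4 pairs both fell (isoleucine, leucine, tryptophan and EPRS1 with PARS2), and in no pair did both rise. In 3 pairs, those of histidine and threonine among them, the mitochondrial gene fell and the cytosolic gene did not pass.

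Cysteine showed the widest split. CARS1 over CARS2 per kb of exon was 5.21, 4.23 and 5.32 in controls and 1.03, 1.04 and 1.05 with the KDM4A plasmid. Exon lengths count every annotated exon, so a ratio near 1 does not show equal amounts of the mRNAs. For tyrosine the ratio went from 18.3 ± 0.689 to 7.26 ± 0.428, and for alanine from 12.1 ± 0.0806 to 5.07 ± 0.319 (SD, n = 3). Histidine went the opposite way, from 3.43 ± 0.0793 to 4.90 ± 0.183. The ratio of tryptophan was 7.43 ± 0.964 in controls and 7.34 ± 0.170 with the KDM4A plasmid, with overlapping libraries. In 14 of the 18 pairs the ratios of the groups did not overlap. No share was computed for ratios of other gene pairs, and CPM of single genes did not overlap in 79.7% of all genes tested. Summed over all genes, cytosolic over mitochondrial CPM was 5.42 ± 0.0628 in controls and 4.87 ± 0.0624 with the KDM4A plasmid.

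**Figure D4:**
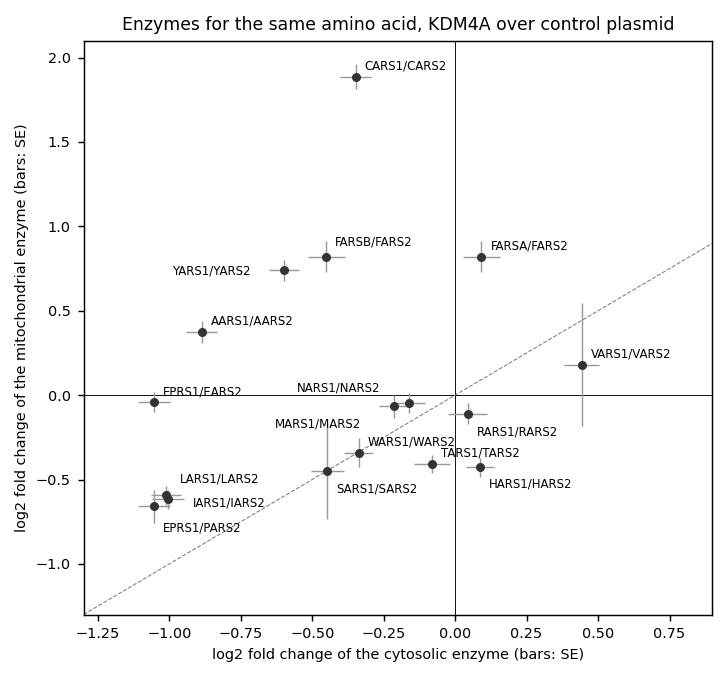
Log2 fold change of the cytosolic enzyme (horizontal) against that of the mitochondrial enzyme for the same amino acid (vertical), KDM4A over control plasmid; bars are standard errors and the dashed line marks equal change. The cysteine pair stands highest at -0.35 and 1.89, and the isoleucine, leucine and EPRS1 with PARS2 pairs lie together at the lower left.

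HARS1 and HARS2 are neighbours transcribed in opposite directions, and their promoter windows overlap over 184 bases, with annotated starts 85 bases apart. HARS2 fell from 45.7, 45.7 and 44.4 CPM to 34.5, 32.8 and 33.6 CPM, whereas HARS1 did not pass. The whole HARS2 window is shown because the pair share its last 184 of 300 bases, which hold both matches in capitals. Capitals mark CCGGAAGT, the core of ETS factor sites, once as ACTTCCGG on the opposite strand. This motif was in the windows of 8 synthetases and of 4.95% of all genes.
HARS2 (chr5:140691205-140691504, plus strand): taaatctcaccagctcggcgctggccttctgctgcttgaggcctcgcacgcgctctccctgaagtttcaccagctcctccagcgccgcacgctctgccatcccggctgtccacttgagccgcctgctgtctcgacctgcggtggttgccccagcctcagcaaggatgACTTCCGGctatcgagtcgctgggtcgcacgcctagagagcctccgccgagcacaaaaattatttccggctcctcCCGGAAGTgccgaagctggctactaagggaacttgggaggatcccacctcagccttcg

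Genes that work beside the synthetases changed in both directions. Of 10 helpers of mitochondrial transfer RNA charging and modification, 3 rose, 3 fell and 4 did not pass. The shares that rose and fell were 30% each, against 40.0% and 38.6% of all genes tested. GATC (-0.45, SE 0.05) and GATB (-0.28, SE 0.06), subunits of the enzyme that makes mitochondrial glutaminyl-tRNA in the absence of a mitochondrial glutamine synthetase, fell. MTO1, a transfer RNA modifier, also fell (-0.38, SE 0.06), with a positive value (0.33) after trend removal. QRSL1, the third subunit, did not pass (-0.09, SE 0.06). PTRH2, a peptidyl-tRNA hydrolase, rose by 0.60 (SE 0.07) and MTFMT, which formylates the mitochondrial initiator, by 0.42 (SE 0.07).

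Of 9 tested mitochondrial translation factors, 6 fell (66.7%, against 38.6% of all genes tested), 2 rose (22.2%, against 40.0%) and 1 did not pass. MTIF3, an initiation factor, rose by 1.08 (SE 0.07) and TUFM, an elongation factor, by 0.48 (SE 0.06), though TUFM was at -0.20 after removal of both trends. TSFM (-0.92, SE 0.29) and the recycling factor MRRF (-0.54, SE 0.05) had the largest falls, but TSFM rested on 60 and 28 counts over the libraries of each group, and MRRF stood at 0.048 with the trends removed. Of 5 tested genes of cytosolic elongation and transfer RNA export, 2 rose, 2 fell and EEF1A1 did not pass. The shares that rose and fell, 40% each, were close to those over all genes tested (40.0% and 38.6%). EEF1D rose by 0.86 (SE 0.05) and EEF1B2 by 0.35 (SE 0.07), with 0.099 and -0.16 after trend removal, while XPOT and the elongation factor EEF2 (-0.25, SE 0.07) fell.

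Of 8 genes of transfer RNA proofreading and selenocysteine supply, 4 rose, 1 fell and 3 did not pass. The shares were 50% higher and 12.5% lower, against 40.0% and 38.6% of all genes tested. PSTK, a kinase of selenocysteine synthesis, rose by 1.00 (SE 0.12) and the deacylase DTD1 by 0.61 (SE 0.10), while SEPSECS, which completes selenocysteine on its transfer RNA, fell by 0.98 (SE 0.08) and stood at -0.38 after trend removal. TARS3, a TARS1-like gene that the symbol rule leaves out, stood at 55.5, 53.9 and 59.9 CPM in controls and was lower with the KDM4A plasmid, at 52.1, 46.4 and 45.2 CPM (log2 fold change -0.24, SE 0.06, adjusted p = 0.0030).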

How the data were processed

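Whole-number read counts of 6 libraries, not normalized, were deposited by the authors in 1 table, made with HISAT2, HTSeq and GRCh38 per the submitters' processing notes (no version or strand setting is stated in the sources); gene models are on GRCh38.p13 per the file headers. The deposited exon lengths, also per the file headers, were used as other gene information. Columns were matched to samples by library name, with 0 columns unmatched. Of the genes, 17147 passed filterByExpr (minimum count 10) and were tested with edgeR 4.0.16 (glmQLFit with the robust option, glmQLFTest, TMM, no covariates, R 4.3.3). Benjamini-Hochberg adjustment ran over all of them. SE is the log2 fold change divided by the square root of F, and intervals are 95%. TMM factors lay between 0.970 and 1.03. Libraries of 1 group were not copies of each other (chi-square of their counts divided by its degrees of freedom, 1.48 to 10.6). Each was entered as 1 replicate, but this value cannot show whether libraries are separate cultures. GC content is that of the longest GENCODE v29 transcript (99.1% of genes tested had a value). Trends with GC and length were fitted per library by loess and removed as offsets.

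The members and gene lists were chosen with earlier results of these data known. CPM per library is given for the 5 largest rises and falls among cytosolic and the 4 largest among mitochondrial members that passed, for GARS1 and KARS1, and for members that did not pass; in the other lists the largest 2 rises and falls are named. Library values of YARS1, WARS1, HARS2 and TARS3, and GATB, QRSL1, EEF1A1, ATF4, EIF2AK2 and PPP1R15B were added after their values were seen. Marker lists of mesenchymal cells (2 of 6 tested genes rose, 3 fell) and leukocytes (summed level 1.75 to 4.93 CPM) were also read. On simulated counts (200 changed genes among 16808 tested), 38%, 86%, 100% and 100% of 1.25-, 1.5-, 2- and 4-fold changes were recovered, with 15 unchanged genes among 177 calls. Far fewer genes changed there than in the data, where 78.6% passed, so these rates check the code and do not give the recovery here. Alternatives were DESeq2 1.42.0, limma-voom (limma 3.58.1), other scalings, filters and estimation, a 1.2-fold test, a replicate block, trend removal and leaving out each library. Counts, sums and medians run over all members; some members' own values are not reported here, in the text or the figures.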

Additional observations from a re-analysis of the deposited data

How the results depend on the processing

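Of the 35 synthetases described singly, 17 kept their direction and their side of the threshold in every setting that gave a value. All 35 did so with DESeq2, limma-voom, RLE factors, no filter, no robust estimation and library sizes without mitochondrial genes and KDM4A; VARS2 failed the stricter filter and has no value there. Removing the exon length trend shifted the median of all genes by -0.17 and the share of calls that were higher from 50.9% to 40.8% (5374 higher and 7813 lower, against 6867 and 6613), and removing GC and length trends shifted them by -0.16 and to 41.4% (5580 and 7892). Relative to the median of all genes, the cytosolic median was -0.30 and the mitochondrial -0.14; they were -0.51 and -0.13 with GC and length trends removed, but -0.31 and -0.34 with length alone, where the cytosolic median was no longer the lower one. With GC and length trends removed the sign differed for AARS2 (-0.048), FARSA (-0.72), FARSB (0.087), HARS1 (-0.19), QARS1 (-0.51), VARS1 (-0.19) and VARS2 (-0.38), and with the length trend alone for EARS2 (0.10), FARSA (-0.37), HARS1 (-0.35), KARS1 (-0.10), QARS1 (-0.31) and RARS1 (-0.35). The count of cytosolic genes called higher, 2, was 0 with GC and length trends removed and 1 with the length trend removed or in the test against 1.2-fold, and 11 mitochondrial genes were called lower, not 7, with the length trend removed. That loess fits the average gene at each length and GC content is part of its construction; whether the trends are technical was not tested. Without a TMM factor 31 of the 35 kept direction and side, 2 more passed, and QARS1 (-0.023) and RARS1 (-0.0012) changed sign without passing. Leaving out 1 library gave 24 to 27 synthetases called, 11 to 13 cytosolic genes lower, 2 to 3 higher, 7 to 8 mitochondrial genes lower and 4 higher; besides NARS1, which lost its call, RARS2 (-0.16) passed without control replicate 1, RARS1 (0.13) without control replicate 3, and FARSA (0.15) and SARS2 (-0.91) without KDM4A replicate 1. The sign of genes that did not pass also varied, with ranges of -0.022 to 0.064 for QARS1, -0.029 to 0.13 for RARS1 and -0.11 to 0.52 for VARS2.

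The replicate block gave the same calls for the members (25 called). Same-numbered libraries share only a number: their deviations correlated at -0.38, 0.11 and -0.27. Over all genes the block gave 6741 higher and 6501 lower. Intervals cover the spread between libraries, and depth limits SARS2 and VARS2 most.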
